A study of Mus musculus with 6 samples.

Results

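The 10 genes described here are Neurog3 and 9 transcription factors and cofactors that act at or just after the step at which a progenitor commits to the endocrine fate: Neurod1, Insm1, Nkx2-2, Pax4, Rfx6, Rfx3, Myt1, St18 and Runx1t1. They were taken by name from the 23845 genes of a table of RNA-seq counts for 6 libraries made from intestinal epithelium of mice, and all 10 passed the filter on low counts that left 13935 genes to test. The series concerns the dose of Neurog3 in progenitors of enteroendocrine cells, the hormone-secreting cells of the gut lining. It has 3 groups of 2 libraries. EGFP cells came from mice of genotype Neurog3+/-EGFP, with 1 allele of Neurog3, on a C57BL6 background. EYFP cells came from Neurog3+/+EYFP mice, with 2 alleles, on a mixed C57BL6 and CD1 background, and their titles carry the word addon. Both kinds of cell were sorted by flow cytometry as cells that express Neurog3, while the third group was wild-type C57BL6 epithelium with titles that begin with Duod. Reporter and strain therefore differ between the EGFP and EYFP groups together with the number of alleles. The labels state neither age nor treatment, gut segment, sort gates or the number of animals behind a library.

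Neurog3 encodes a basic helix-loop-helix (bHLH) factor that is switched on briefly in crypt progenitors and is required for the enteroendocrine lineage. It pairs with broadly expressed E proteins, binds the short DNA motif called an E-box, and turns on a next layer of factors, among them Neurod1, Insm1, Nkx2-2, Pax4 and Rfx6, that carry the cell towards hormone production. Notch signalling through Hes1 holds the gene off in neighbouring cells. Several of these factors have also been studied in the endocrine pancreas, where they work in islet progenitors.

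Stretches of DNA just before an annotated start are shown for 3 of these genes. Neurog3 and Neurod1 are E-box binders. The sequences are RefSeq promoters of GRCm38.p6 (mm10), written 5′ to 3′ on the strand of the gene, with each match to the E-box CANNTG in capitals. CANNTG reads the same pattern on both strands, so 1 search covers them. The stretches are chr10:62132840-62133089 for Neurog3 (plus strand), chr2:147186456-147186652 for Nkx2-2 (minus strand, without 53 bases that lie in an exon) and chr10:51685268-51685517 for Rfx6 (plus strand).
Neurog3: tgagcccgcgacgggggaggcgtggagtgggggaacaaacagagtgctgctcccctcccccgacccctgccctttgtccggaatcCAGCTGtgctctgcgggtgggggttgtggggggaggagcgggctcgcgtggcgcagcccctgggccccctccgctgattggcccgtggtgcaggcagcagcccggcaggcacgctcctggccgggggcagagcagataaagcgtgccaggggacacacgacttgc
Nkx2-2: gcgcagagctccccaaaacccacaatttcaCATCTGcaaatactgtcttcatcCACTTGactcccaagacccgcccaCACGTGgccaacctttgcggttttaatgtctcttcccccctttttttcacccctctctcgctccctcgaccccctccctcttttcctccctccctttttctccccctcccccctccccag
Rfx6: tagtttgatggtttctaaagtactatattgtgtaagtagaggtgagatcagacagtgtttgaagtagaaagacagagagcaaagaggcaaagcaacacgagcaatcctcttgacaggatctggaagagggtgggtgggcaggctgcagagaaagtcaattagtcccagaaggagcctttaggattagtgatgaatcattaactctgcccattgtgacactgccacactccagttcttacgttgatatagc

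The Neurog3 stretch holds 1 match, CAGCTG, 165 bases before the start. That of Nkx2-2 holds 3 matches, namely CATCTG at 220 bases before the start, CACTTG at 197 bases and CACGTG at 173 bases, and the Rfx6 stretch holds none. The Nkx2-2 and Rfx6 stretches lie inside their genes, which span 147176485 to 147195434 (minus strand) and 51677760 to 51730429 (plus strand). Their starts are thus internal ones, and the DNA before the outer start of either gene is not shown. Of the windows not shown, that of Neurod1 holds 1 match, those of Myt1 hold 0, 2 and 1, and that of Rfx3 holds none. Of 32536 promoter windows of 250 bases, 66.2% held at least 1 match and 12.2% held 3 or more. Whether the factors differ from that background was not tested. The narrower pattern CAGATG or CATCTG, which a search of both strands reads as a single motif and which is contained in CANNTG, was in 14.4% of all windows. Among the 8 windows of the 6 factors with an entry (Neurog3, Neurod1, Nkx2-2, Rfx6, Rfx3 and Myt1), only that of Nkx2-2 held it. The matches are letters in a window and were not measured as bound sites.

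Total estimated counts were 7938358 to 20589683 per library, and 1 count was worth 0.0603 to 0.121 CPM (the usual per-library scaling of counts, here with edgeR's TMM factors). The lowest estimated count of any of the 10 genes was 129 in a sorted library and 11.05 in wild type. Both EGFP libraries had Xist, the RNA of the inactive X chromosome, at 966 and 969 CPM, and both EYFP libraries had the Y-linked Ddx3y at 37.3 and 39.3 CPM, so that sex, strain, reporter and the number of alleles cannot be told apart between these groups. The first wild-type library had Ddx3y at 62.4 CPM and Xist at 1.17 CPM. The second had Xist at 726 CPM and Ddx3y at 0.121 CPM. Sex was thus mixed within wild type, the reference for both sorted groups, and its part in those comparisons was not tested. The 6 epithelial markers summed to 7141 and 7608 CPM in EGFP cells, 5679 and 5818 CPM in EYFP cells and 9983 and 11380 CPM in wild type. Endocrine markers stood above wild type in both sorted groups: 8 of them summed to 15300 and 21790 CPM in EGFP cells, 65270 and 63580 CPM in EYFP cells, and 689.1 and 834.6 CPM in wild type. Chgb alone gave 47150 and 33110 CPM of the sums in EYFP cells. Between EYFP and EGFP cells 4 of the 8 were called higher, beside 16.8% of all genes tested, and Scg2, Gip, Cck and Sst did not pass. Markers of other epithelial cells moved as well. The 7 goblet cell markers summed to 60930 and 100500 CPM in EGFP cells against 688.5 and 1804 CPM in EYFP cells, and 6 Paneth cell markers to 10970 and 13070 CPM against 586.1 and 312.4 CPM, with none of either list at 0 in a group. The 5 markers of dividing cells summed to 841.6 and 775.6 CPM in EGFP cells and 121.1 and 184.9 CPM in EYFP cells. The part of these differences in the results on the 10 genes was not tested, and in bulk RNA fewer cells of a type and less RNA per cell cannot be told apart.

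Neurog3 itself was detected in all 6 libraries. Its level was 119.5 and 179 CPM in EGFP cells, 563.4 and 347.9 CPM in EYFP cells and 5.996 and 6.392 CPM in wild type. The groups did not overlap, and the EYFP libraries lay farthest apart, the first at 1.62 times the second. Neurog3 was 3.05-fold higher in EYFP than in EGFP cells (log2 fold change 1.61 ± 0.28 SE, adjusted p = 0.0049, edgeR quasi-likelihood test with Benjamini-Hochberg adjustment over all genes tested, which holds for each adjusted p that follows). The mean in EGFP cells, 149.3 ± 42.1 CPM (SD, n = 2), was 32.8% of the mean in EYFP cells, 455.7 ± 152.3 CPM (SD, n = 2). Against wild type, Neurog3 was 24-fold higher in EGFP cells (log2 4.59 ± 0.33 SE, adjusted p = 8.3e-05) and 73.4-fold higher in EYFP cells (log2 6.20). Both kinds of cell were sorted as cells that express Neurog3, so the direction of these 2 differences was set by the sort. The table gives 1 value per gene, so it does not show which part of the locus, replaced or not, the reads came from. The exons of Neurog3 (chromosome 10, 62133090 to 62134763, plus strand) share 273 bases, 16.3% of its exon bases, with Fam241b on the opposite strand. That gene (in the table as 2010107G23Rik) was at 25.6 and 61.1 CPM in EGFP, 41.9 and 31.0 CPM in EYFP and 16.1 and 16.0 CPM in wild-type libraries. No source used here states whether reads were counted by strand.

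**Figure D1:**
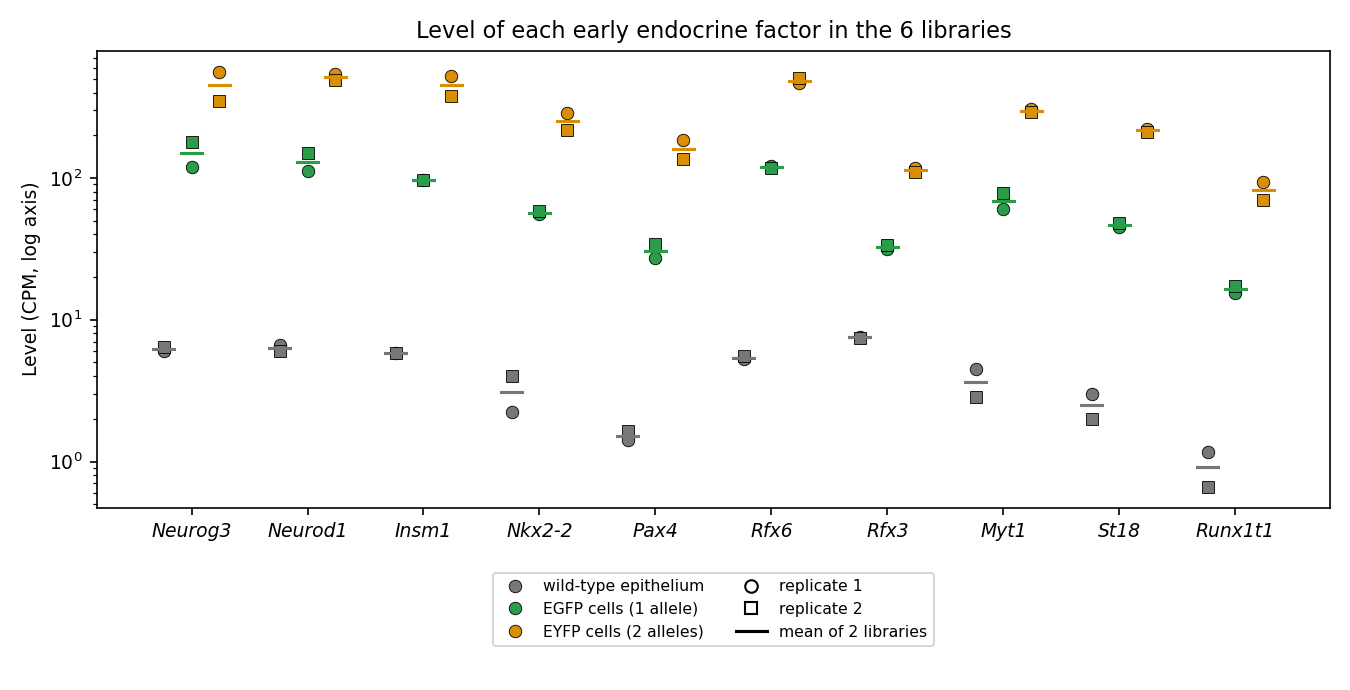
Level of each of the 10 genes in each of the 6 libraries, in CPM on a log axis, 1 symbol per library (circle for replicate 1, square for replicate 2) and the bar at the mean of the 2 libraries of a group. For every gene both EYFP libraries lie above both EGFP libraries, which lie above both wild-type libraries, and Rfx3 spans the narrowest range.

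Neurod1, the bHLH factor that follows Neurog3 in the lineage and is kept in many mature endocrine cells, was at 112 and 149.1 CPM in EGFP cells, at 544.6 and 488.1 CPM in EYFP cells and at 6.66 and 6.03 CPM in wild type. The 3 groups did not overlap. It was 3.95-fold higher in EYFP than in EGFP cells (log2 1.98 ± 0.18 SE, adjusted p = 0.00041) and 20.6-fold higher in EGFP cells than in wild type (adjusted p = 2e-05). Its exons share 201 bases, 7.37%, with Cerkl on the same strand and 154 bases with the non-coding Gm26755 on the other. Cerkl stood at 6.88 and 7.53 CPM in EGFP and 14.5 and 24.9 CPM in EYFP libraries, far below Neurod1.

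Insm1, a zinc-finger repressor needed for endocrine cells to mature, was almost the same in the 2 EGFP libraries, at 96 and 96.56 CPM. It reached 521.8 and 378 CPM in EYFP cells against 5.83 and 5.85 CPM in wild type. That made it 4.67-fold higher in EYFP than in EGFP cells (log2 2.22 ± 0.18 SE, adjusted p = 0.00027) and 16.5-fold higher in EGFP cells than in wild type (adjusted p = 2.5e-05).

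The homeodomain factors Nkx2-2 and Pax4 are both used to choose between endocrine subtypes. Nkx2-2 was at 55.36 and 58.34 CPM in EGFP cells, 286.8 and 216.5 CPM in EYFP cells and 2.25 and 3.98 CPM in wild type, with no overlap between groups. The rise from EGFP to EYFP cells was 4.43-fold (log2 2.15 ± 0.23 SE, adjusted p = 0.00079). Nkx2-2 shares 278 exon bases, 9.67%, with the antisense gene Nkx2-2os, which did not pass the filter on low counts. Pax4 was at 27.38 and 33.99 CPM in EGFP cells, 184.7 and 136.7 CPM in EYFP cells and 1.42 and 1.63 CPM in wild type. Its EYFP to EGFP fold was 5.23 (log2 2.39 ± 0.20 SE, adjusted p = 0.00028), and it was 104-fold higher in EYFP cells than in wild type. Both were the largest of the 10 with all libraries, but not without the first EYFP library, where St18 had 2.17 against 2.15 for Pax4 between EYFP and EGFP cells. Against wild type Runx1t1, at 6.93, stood above Pax4 without the first wild-type library, and Rfx6 did so without the first EYFP library.

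Of the RFX factors, which share a winged-helix DNA-binding domain, Rfx6 is needed for several gut and islet hormone cells and Rfx3 is also known for its role in ciliated cells. Rfx6 was at 122.1 and 118 CPM in EGFP cells, 466.6 and 505 CPM in EYFP cells and 5.25 and 5.55 CPM in wild type. Replicates of Rfx6 lay close together, and it was the only one of the 10 whose second EYFP library was the higher of the 2. Its EYFP to EGFP fold was 4.05 (log2 2.02 ± 0.14 SE, adjusted p = 2e-04). Rfx3 was at 31.36 and 33.82 CPM in EGFP cells, 118 and 109.3 CPM in EYFP cells and 7.58 and 7.48 CPM in wild type, which was the highest wild-type level of the 10 in CPM. It was 3.48-fold higher in EYFP than in EGFP cells (log2 1.80 ± 0.14 SE, adjusted p = 0.00023). Between EGFP cells and wild type its fold was 4.33 (log2 2.11 ± 0.15 SE, adjusted p = 4.8e-05), where the other 9 lay between 16.5 and 24.

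Myt1 and St18 are zinc-finger factors of one family, and Runx1t1 is a corepressor of the ETO family that binds DNA through partner proteins. Myt1 was at 59.94 and 78.72 CPM in EGFP cells, 308.3 and 289.8 CPM in EYFP cells and 4.50 and 2.83 CPM in wild type, a 4.31-fold difference between EYFP and EGFP cells (log2 2.11 ± 0.21 SE, adjusted p = 0.00058). St18 was at 45.35 and 48.37 CPM, 221.2 and 211.4 CPM and 2.998 and 1.99 CPM in the same order, a 4.61-fold difference (log2 2.21 ± 0.17 SE, adjusted p = 0.00025). Neither gene's groups overlapped. Runx1t1 had the lowest levels of the 10, with 15.56 and 17.16 CPM in EGFP cells, 93.87 and 70.33 CPM in EYFP cells and 1.17 and 0.663 CPM in wild type. Its fold between EYFP and EGFP cells was 5.01 (log2 2.32 ± 0.22 SE, adjusted p = 0.00049). In wild type its 2 libraries rested on estimated counts of 13.62 and 11.05, so its fold of 18.3 between EGFP cells and wild type is the least well counted of the set.

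All 10 genes were higher in EYFP than in EGFP cells, in a comparison in which edgeR called 16.8% of all genes tested higher and 19.4% lower. Their median log2 fold change was 2.13, against 0.008 over all genes tested, and they ran from 1.61 for Neurog3 to 2.39 for Pax4. With all libraries Neurog3 had the smallest difference, and 7.48% of all genes tested had a fold change at or above it. Its place was not tested, and Rfx3 was lower than Neurog3 without the second EGFP library (1.85 against 1.93) or without the second EYFP library. All 10 were also higher in EGFP cells than in wild type, where 19.6% of genes were called higher and 21.9% lower, with a median of 4.26 against 0.003. Markers of other cell types moved in this comparison too: 6 enterocyte markers summed to 20770 and 32500 CPM in wild type, 811.1 and 1111 CPM in EGFP cells and 678 and 1357 CPM in EYFP cells, with 6 of 6 lower in each sorted group. The goblet cell markers summed to 5383 and 6978 CPM in wild type, below EGFP cells and above EYFP cells, and the part of these markers in the results was not tested. Between EYFP cells and wild type, where 27.1% of genes were called higher and 33.5% lower, all 10 were called and their median was 6.36 against -0.122. For Neurog3 the direction of both comparisons with wild type was set by the sort. In CPM the 2 groups of each comparison did not overlap for any of the 10, as for 37.3%, 35% and 37% of all genes in the direction of these changes. The 3 comparisons share libraries and are not independent of each other. The 10 genes together took 0.0715% and 0.0821% of all counts in EGFP cells, 0.378% and 0.322% in EYFP cells and 0.00383% and 0.00341% in wild type.

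**Figure D2:**
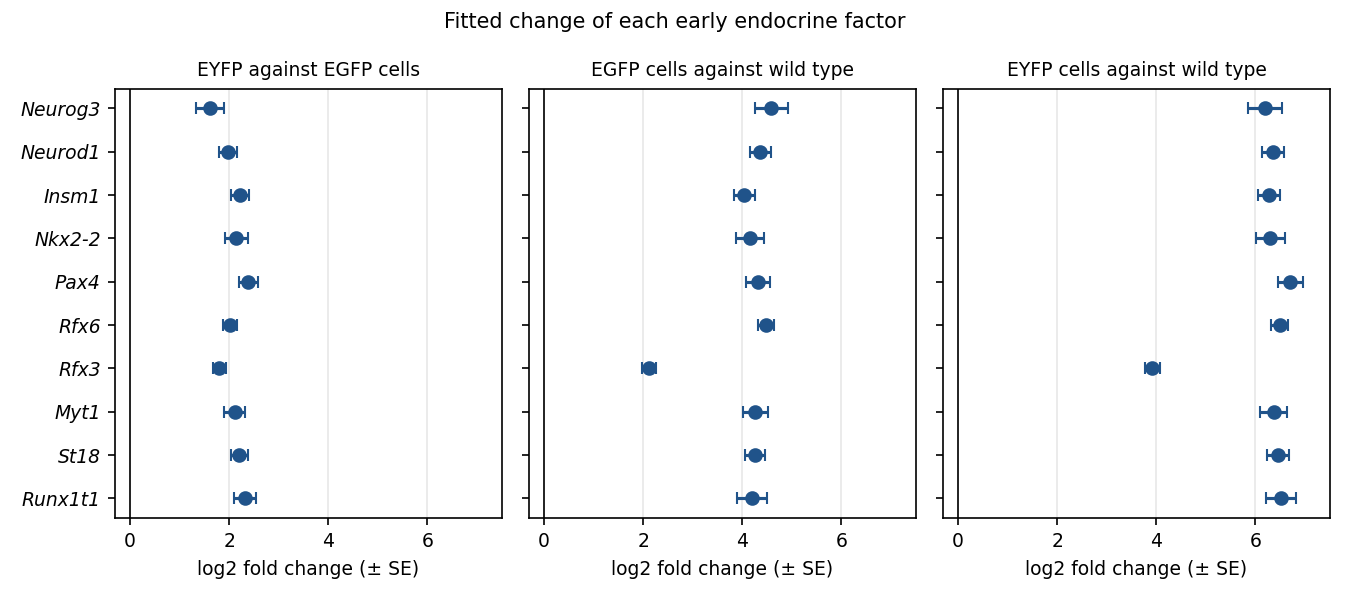
Log2 fold change of each of the 10 genes in the 3 comparisons, with bars of 1 SE from the edgeR fit. Every point lies above 0. Rfx3 stands below the other 9 against wild type in both sorted groups, and Neurog3 has the lowest value between EYFP and EGFP cells.

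EGFP cells held 19.1% (Pax4) to 32.8% (Neurog3) of the mean CPM of EYFP cells. On the log2 scale, the step from wild type to EGFP cells covered 74.0% of the distance from wild type to EYFP cells for Neurog3, 64.3% to 68.9% for 8 of the others and 54.0% for Rfx3. These shares are point values with no test.

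The ratio of each factor to Neurog3 within a library does not depend on scaling. Neurod1 stood at 0.937 and 0.833 of Neurog3 in EGFP cells and at 0.967 and 1.4 in EYFP cells. For Insm1 the ratios were 0.803 and 0.539 in EGFP cells and 0.926 and 1.09 in EYFP cells, and for Pax4 they were 0.229 and 0.19, then 0.328 and 0.393. In 7 of the 9 factors both EYFP ratios lay above both EGFP ratios, as for 2.9% of all other genes tested. The exceptions were Rfx6, with 1.02 and 0.659 in EGFP and 0.828 and 1.45 in EYFP cells, and Rfx3, with 0.262 and 0.189 against 0.209 and 0.314. The log2 change of the mean ratio ran from 0.204 to 0.783 over the 9 factors, with a median of 0.535. Neurog3 is in every one of these ratios, so they share its spread between the 2 EYFP libraries, and they were not tested. In wild type Rfx3 was above Neurog3, at ratios of 1.27 and 1.17, where both sorted groups stayed at or below 0.314.

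A second set of ratios took Chga, a secretory granule gene of most enteroendocrine cells, as the reference. Chga was at 1990 and 3357 CPM in EGFP cells, 10630 and 9611 CPM in EYFP cells and 125.9 and 144.2 CPM in wild type. The ratio of Neurog3 to Chga was 0.0601 and 0.0533 in EGFP cells and 0.053 and 0.0362 in EYFP cells, below both EGFP values as for 89% of all genes. The ratio of Pax4 to Chga was 0.0138 and 0.0101 in EGFP cells and 0.0174 and 0.0142 in EYFP cells, above both as for 1.82% of all genes. The other 8 ratios to Chga overlapped between EGFP and EYFP cells.

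**Figure D3:**
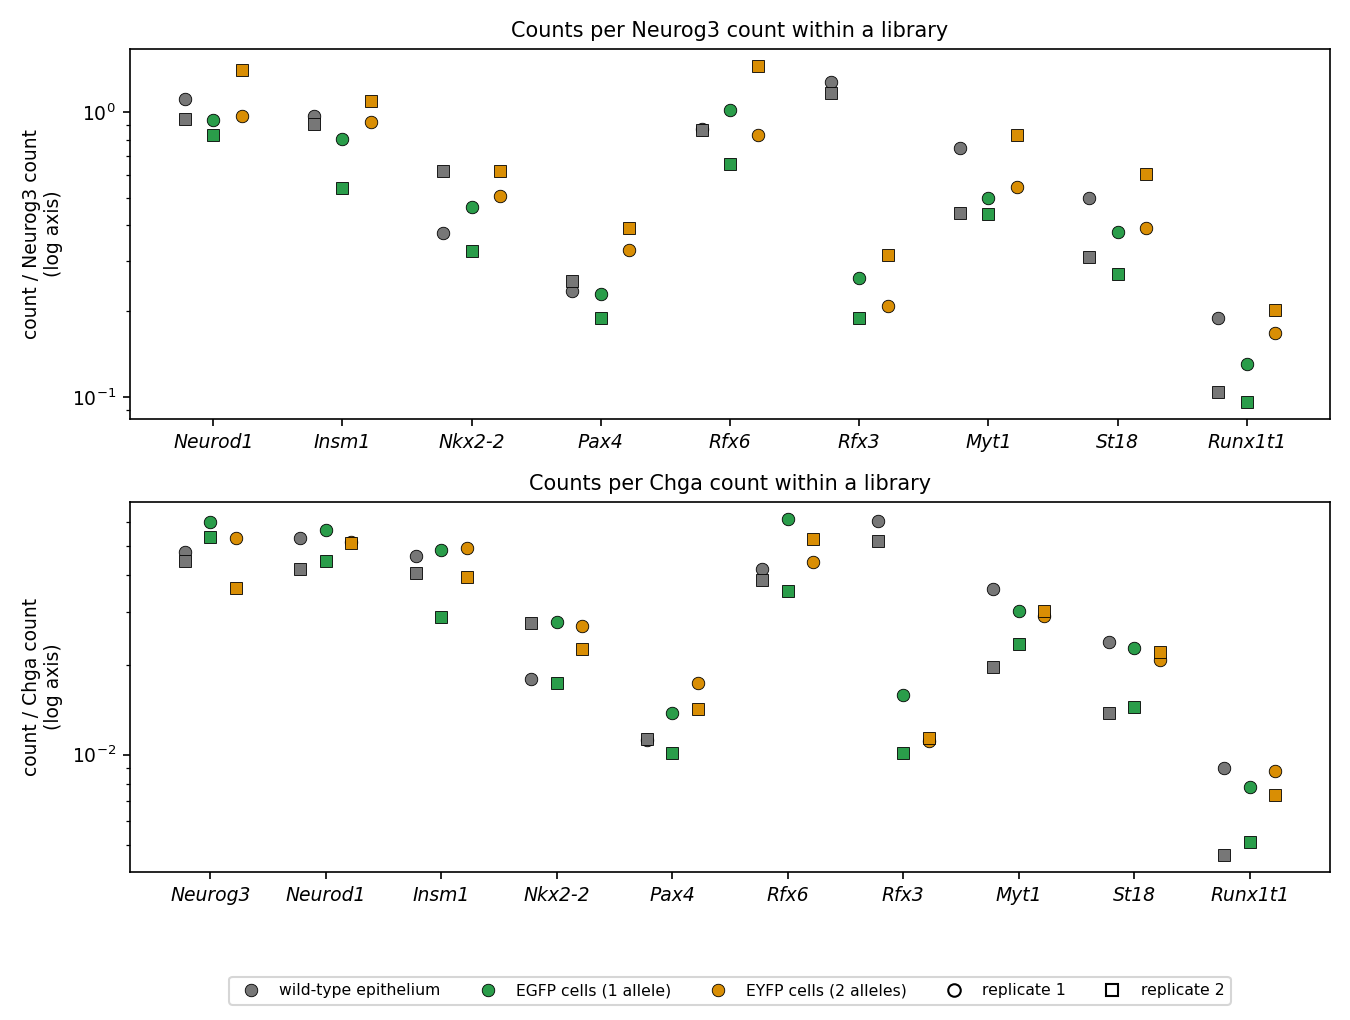
Ratio of the estimated count of each factor to that of Neurog3 (upper panel, 9 factors) and of Chga (lower panel, all 10) in each of the 6 libraries, on log axes, 1 point per library. In the upper panel the second EYFP library has the highest ratio of the 4 sorted libraries for all 9 factors, and in both panels Rfx3 in wild type lies above all of its sorted libraries.

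Levels of different genes were compared as CPM per kilobase of the mean length of their transcripts in the mouse annotation. Neurog3 ranked first in all 3 groups, at 296 ± 99 in EYFP cells, 96.8 ± 27.2 in EGFP cells and 4.02 ± 0.184 in wild type (CPM per kilobase, SD, n = 2). In EYFP cells it was followed by Neurod1 at 190 ± 14.8, Nkx2-2 at 158 ± 31.8, Rfx6 at 148 ± 8.49, Insm1 at 145 ± 32.5 and Pax4 at 126 ± 26.9. Replicate values of neighbours in that stretch from Neurod1 to Pax4 overlapped, while those of Neurog3 and Neurod1 did not. Lower and apart from them came Myt1 at 59.7 ± 2.55 and St18 at 42.8 ± 1.41, then Rfx3 at 19.1 ± 1.06 and Runx1t1 at 16.2 ± 3.25, the last pair overlapping. Below Neurog3 the order depends on the transcript taken for a gene. With its longest and shortest transcript Nkx2-2 lay between 119 and 239 and Rfx3 between 12.4 and 41.4, and with the shortest St18 was at 61.2 and Runx1t1 at 24.8, above the mean-length values of Myt1 and Rfx3, while Rfx6 with its longest was at 140. Rfx3 was ninth of 10 in both sorted groups and sixth in wild type.

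The genes with profiles nearest to that of Neurog3 over the 6 libraries were Mboat4, Ptprn2, Lrp11, Syt13 and Gnao1, at distances of 0.317, 0.455, 0.463, 0.476 and 0.531 between centred log2 CPM profiles, out of 9049 candidates. Mboat4 encodes the enzyme that acylates ghrelin, Ptprn2 a protein of secretory granules and Gnao1 a G protein subunit. Mboat4 was at 16.2 and 21.98 CPM in EGFP cells, 84.7 and 41.5 CPM in EYFP cells and 0.583 and 0.603 CPM in wild type, with the first EYFP library above the second, as for Neurog3. Of the other 9 factors, Neurod1 was nearest to Neurog3, at 0.586, with 7 genes outside the set nearer still. Runx1t1 was at 0.993 with 83 such genes nearer, and Rfx3 at 2.76 with 471. The genes nearest to the mean profile of the 10 were Pnmal1, Fgd2, Cryba2, Stac and Tpbg, at 0.144 to 0.303. Within the set Myt1 and St18 were closest to each other, at 0.236. The ranking describes these 6 libraries, which differ in many transcripts at once, and with Pearson's measure in place of the distance only 1 of the 5 genes nearest to Neurog3 stayed in the list.

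Other transcription factors used in endocrine cells or their progenitors rose in most cases. Of 17 tested from a list of 18, 12 rose from EGFP to EYFP cells and none fell. The other 5 did not pass (Etv1, Pdx1, Nkx6-3, Zfp800 and Bcl11a). In the same comparison 16.8% of all genes were higher and 19.4% lower. The number of rises was not the same under every alternative. On the log2 scale these 17 genes had a median change of 1.46, against 0.008 over all genes. Mnx1, a homeodomain factor, rose by 2.69 ± 0.39 (SE, adjusted p = 0.0031), or by 2.02 without the first EYFP library. Egr4, a zinc-finger factor, rose by 3.13 ± 0.80 (adjusted p = 0.022), with adjusted p between 0.056 and 0.085 without the second EGFP library or either EYFP library and a rise of 4.74 without the first EGFP library. Between EGFP cells and wild type 11 rose and 1 fell, Mlxipl, which did not pass without the first EGFP library (adjusted p = 0.061). Over all genes 19.6% were higher and 21.9% lower in that comparison. The median of the list was 2.59, and the largest rises were those of Etv1 (log2 4.98 ± 0.51 SE) and Isl1 (4.70 ± 0.17 SE), a LIM-homeodomain factor. Between EYFP cells and wild type 12 rose and none fell, beside 27.1% higher and 33.5% lower over all genes. The median of the list was 4.75, and the largest rises were those of the serotonin cell factor Fev (7.08 ± 0.43 SE) and of Lmx1a (6.86 ± 0.33 SE).

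A list of genes known to act upstream of Neurog3 was counted in the same way. Of 17 tested, 1 (Hey1) rose from EGFP to EYFP cells, 5 fell (Atoh1, Gfi1, Hes1, Notch2 and Dll1) and 11 did not pass, with a median of 0.17, beside 16.8% higher and 19.4% lower over all genes; without the first EGFP library 3 fell. Between EGFP cells and wild type 5 were higher and 7 lower, or 2 lower without the second EGFP library, beside 19.6% and 21.9% of all genes. Between EYFP cells and wild type 2 were higher and 9 lower, beside 27.1% and 33.5% of all genes. That count of higher genes ran from 1 to 4 and that of lower genes from 7 to 10 over the alternatives, with 4 higher without the first EGFP library and 1 without either EYFP library or the first wild-type library. Atoh1, the bHLH factor of all secretory cells, was at 150.3 and 154.9 CPM in EGFP cells, 2.96 and 4.71 CPM in EYFP cells and 8.66 and 15.6 CPM in wild type. It fell by 5.32 on the log2 scale from EGFP to EYFP cells (SE 0.35, adjusted p = 0.00023). Gfi1, a repressor used by goblet and Paneth cells, was at 50.8 and 49.4 CPM in EGFP cells and 0.352 and 0.505 CPM in EYFP cells, where 1 count was worth 0.0705 and 0.0841 CPM. It fell by 6.85 (SE 0.43, adjusted p = 0.00018), with few counts on the EYFP side. The goblet and Paneth marker sums given above differed between the same libraries in the same direction, and their part in these results was not tested. Hey1, a Notch target, rested on 1 count in each EGFP library and 12 and 9 counts in the EYFP libraries, a ratio of 8.09 (95% exact interval 1.98 to 71.2, counting error only). Its adjusted p was 0.026, and was 0.053 to 0.18 without any 1 of the 6 libraries.

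Hes1, the Notch-driven repressor of Neurog3, had the opposite order of groups to the 10 factors. It was at 34.3 and 23.5 CPM in EGFP cells, 7.47 and 10.01 CPM in EYFP cells and 82.6 and 44.8 CPM in wild type, with no overlap between groups. The fall from EGFP to EYFP cells was 1.72 on the log2 scale (SE 0.36, adjusted p = 0.011), with adjusted p = 0.087 without the first EGFP library and 0.068 without the first EYFP library. It was lower by a log2 of -1.14 ± 0.33 SE in EGFP cells than in wild type (adjusted p = 0.032), a call that ended without either EGFP library (adjusted p = 0.08 and 0.16), without the first wild-type library (log2 -0.64, adjusted p = 0.12) and in a fit to the 4 libraries compared (adjusted p = 0.052). Dll4, a Notch ligand, was higher in both EGFP cells (2.94 ± 0.21 SE) and EYFP cells (3.18 ± 0.21 SE) than in wild type.

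Of 8 partners and inhibitors of bHLH proteins, 2 were higher (Id2 and Tcf4), 1 lower (Id4) and 5 not past the test between EYFP and EGFP cells, with a median of 0.29. Over all genes 16.8% were higher and 19.4% lower, so these shares are near the background; without the second EYFP library none was higher. Against wild type 2 were higher (Id4 and Hes6) and none lower in EGFP cells, beside 19.6% and 21.9% of all genes. In EYFP cells 3 were higher and 1 lower than in wild type, beside 27.1% and 33.5% of all genes. The E protein gene Tcf3, a dimer partner of Neurog3, was at 94.9 and 94.7 CPM in EGFP cells and 88.2 and 89.0 CPM in EYFP cells (log2 -0.10 ± 0.12 SE, adjusted p = 0.57). Tcf4, another E protein, had a log2 fold change of 0.64 ± 0.19 SE (adjusted p = 0.032), which missed the threshold without any 1 of the 4 libraries (adjusted p from 0.072 to 0.18). The Id proteins bind E proteins and keep them from DNA. Id2 rose by 1.32 ± 0.31 (SE, adjusted p = 0.017), or by 1.15 with adjusted p = 0.079 without the second EYFP library. Id1 and Id3 had log2 fold changes of 0.65 ± 0.34 and 0.59 ± 0.25 SE (adjusted p = 0.18 and 0.11), and of 1.15 and 1.03 (adjusted p = 0.049 and 0.016) without the second EGFP library. With the replicate number as a block both were past the threshold (adjusted p = 0.01 and 0.028). Id4 was at 17.0 and 12.9 CPM in EGFP cells, where the EYFP libraries held 1 and 2 counts, a ratio of 127 (95% exact interval 43.0 to 618, counting error only).

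Relatives of the 10 factors were mostly at or near a count of 0. Of 22, 14 did not pass the filter on low counts and stood at 0.493 CPM at most, and 6 of these (Neurog1, Neurog2, Nkx2-5, Pax2, Rfx8 and Myt1l) had no count in any library, where 0 counts allow up to 0.181 to 0.363 CPM per library. Among the 8 tested, 3 rose (Neurod2, Rfx2 and Cbfa2t2) and 2 fell (Pax8 and Rfx1) from EGFP to EYFP cells, with a median of 0.09, beside 16.8% higher and 19.4% lower over all genes. Neither fall passed the test without the first EGFP library, and the rise of Rfx2 (adjusted p = 0.034) was lost when any single EGFP or EYFP library was left out (adjusted p 0.084 to 0.14) or without the filter on low counts (0.09). Against wild type 3 were higher and 1 lower in EGFP cells, beside 19.6% and 21.9% of all genes. In EYFP cells 4 were higher and 2 lower than in wild type, beside 27.1% and 33.5% of all genes. Neurod2, a relative of Neurod1, followed the set, at 9.41 and 9.81 CPM in EGFP cells, 62.7 and 53.8 CPM in EYFP cells and 0.833 and 0.603 CPM in wild type (log2 2.60 ± 0.19 SE from EGFP to EYFP cells, adjusted p = 0.00023). Pax8, a relative of Pax4, was higher in wild type (11.1 and 25.3 CPM) than in EGFP cells (1.57 and 1.52 CPM) or EYFP cells (0.282 and 0.421 CPM). Its difference between the sorted groups, a log2 of -2.12 ± 0.63 SE (adjusted p = 0.033), missed the threshold without any 1 of the 4 libraries (adjusted p from 0.088 to 0.15).

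A further list holds genes known from Neurog3-expressing progenitors and their progeny. Of 15 tested from 16, 11 rose from EGFP to EYFP cells, beside 16.8% of all genes tested, and 4 did not pass (Gadd45b, Hes6, Smarcd2 and Fbxw7), with a median of 1.34. Against wild type 9 were higher in EGFP cells, beside 19.6% of all genes, and 14 in EYFP cells, beside 27.1%. Fbxw7 did not pass in EYFP cells, and none was lower than wild type in either sorted group. Pak3, a kinase linked to cell cycle exit of endocrine progenitors, was at 11.3 and 13.5 CPM in EGFP cells, 119.5 and 99.5 CPM in EYFP cells and 0.75 and 0.362 CPM in wild type. Its groups did not overlap, and its log2 fold change of 3.13 ± 0.22 (SE, adjusted p = 2e-04) was above that of each of the 10 factors. Chgb, a granule protein gene, rose by 2.39 ± 0.38 (SE, adjusted p = 0.003), with adjusted p = 0.062 without the first EGFP library. Hes6, itself a bHLH gene, was 1.28 ± 0.14 SE higher on the log2 scale in EGFP cells than in wild type, and stood at 120.5 and 130.5 CPM in EGFP cells beside 127.5 and 121.6 CPM in EYFP cells.

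**Figure D4:**
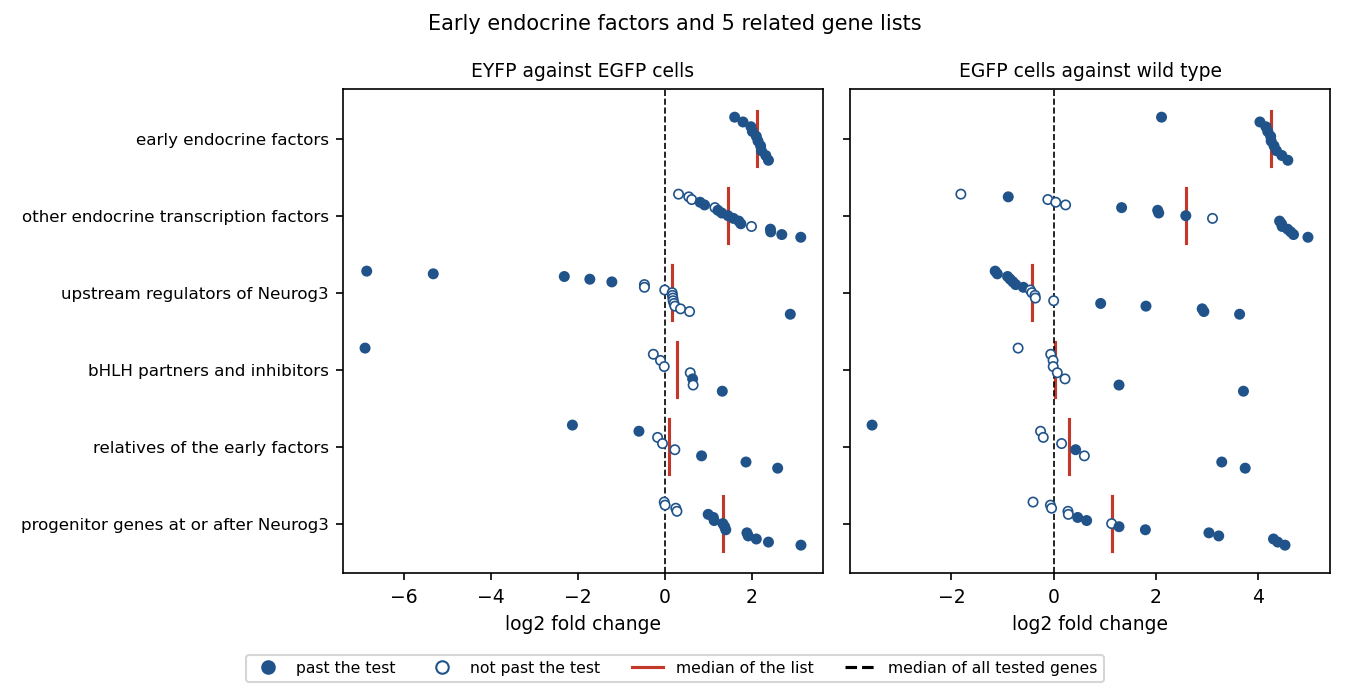
Log2 fold change of every tested gene in the set of 10 and in the 5 related lists, between EYFP and EGFP cells (left) and between EGFP cells and wild type (right), 1 point per gene, filled where past the test, with the median of each list as a red line and that of all genes dashed. On the left the 10 factors lie between 1.61 and 2.39, while the upstream regulators spread from -6.85 (Gfi1) to 2.89 (Hey1). On the left the points of Id4 and Hey1 rest on 3 and 2 counts in 1 group, and that of Gfi1 on few counts in EYFP cells.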

How the data were processed

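The 6 libraries hold single-end reads, each of 50 bases, per the labels' protocols. The submitters' processing notes name RSEM 1.3.1, Bowtie2, FastQC 0.11.8, the build mm10 and DESeq2 1.26.0, without roles or a strand setting. The authors deposited estimated counts per gene, which were rounded to whole numbers. The authors' deposited table of comparisons also holds a signal per library (counts over 1 size factor), a linear fold and an adjusted p-value per comparison; in it Neurog3 has a fold of 3.03 and Pax4 of 5.19 between EYFP and EGFP cells.

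With edgeR 4.0.16 (R 4.3.3), low genes were removed by filterByExpr (13935 genes, 58.4%, were kept), libraries were scaled with TMM, and a robust quasi-likelihood F test was run. A single model held the means of the 3 groups and used every library, which leaves 3 residual degrees of freedom; the adjusted p threshold was 0.05. The SE comes from the F value. No label says that the replicates were separate animals, and p-values measure the spread between these libraries. The wild-type libraries came from different animals, as the first had Ddx3y at 62.4 CPM and the second Xist at 726 CPM. Within each sorted group the spread may be technical. Likeness is the distance between centred log2 CPM profiles (prior count 2), over genes at 10 CPM or more in both EYFP libraries. Coordinates and promoters are from RefSeq and transcript lengths from GENCODE, and 10 of 10 genes matched both. The fit was tested on simulated data. The 10 genes and all lists were chosen with earlier results of these data known. The text names the 10 genes, the 5 genes nearest to Neurog3 and to their mean, the 2 largest changes of a list per comparison, and Hes1, Atoh1, Tcf3, Tcf4, Id1, Id2 and Id3; the exceptions, chosen after their values were seen, are Hey1, Hes6, Chga, those that spell out a small count, and the genes that share exons with the 10. Alternatives were scaling by DESeq2 size factors or without the 50 top genes, no filter, a minimum of 10 counts, the DESeq2 Wald test (DESeq2 1.42.0), a fit to the 4 libraries compared, a replicate block, leaving out each library, and 2 other measures of likeness.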

Additional observations from a re-analysis of the deposited data

How the results depend on the processing

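All 10 factors were called higher in each of the 3 comparisons under every alternative run, and each of the 390 recomputed log2 fold changes of the 10 kept its direction and its call. Against wild type the direction for Neurog3 was set by the sort. The value that moved most was that of Nkx2-2 between EGFP cells and wild type, from 3.83 without the first wild-type library to 4.66 without the second (4.16 in all libraries). Neurog3 between EYFP and EGFP cells ran from 1.22 without the first EYFP library to 1.93 without the second EGFP library, with a highest adjusted p of 0.031 without the first EGFP library. Counts over all genes moved more when 1 library was left out: between EYFP and EGFP cells 1138 to 2525 genes were higher (2343 in all libraries) and 1254 to 2958 lower (2702), and between EGFP cells and wild type 1937 to 2494 were higher (2733) and 1820 to 3019 lower (3046). Each lowest count was without an EGFP library, and where a group kept 1 library the fit borrowed the spread of the other groups. DESeq2 size factors moved the median of all genes between EYFP cells and wild type from -0.122 to -0.007. Of the 5 genes nearest to Neurog3, 4 stayed with a prior count of 0.5 and 1 with Pearson's measure.

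With the replicate number as a block, 10 of the 10 factors were higher in each comparison, and over all genes 2512 were higher and 2932 lower between EYFP and EGFP cells, 2814 and 3155 between EGFP cells and wild type, and 3850 and 4780 between EYFP cells and wild type. The differences between replicates of 2 groups correlated at 0.022, 0.096 and 0.014 over 13935 genes. Such values show no shared pattern over all genes, but a shared batch that moved few genes would not show in them. In wild type the replicates also differed in the sex-linked Xist and Ddx3y.

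At these depths the 10 genes rest on at least 11.05 estimated counts per library, and only the wild-type levels are thinly counted. With 2 libraries per group, the spread is taken from 3 residual degrees of freedom.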
